A study of Rattus norvegicus with 9 samples.

Results

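The 10 genes described here set the G1 gate of the cell cycle: the INK4 inhibitors Cdkn2a, Cdkn2b and Cdkn2c, the inhibitor Cdkn1b, the D cyclins Ccnd1, Ccnd2 and Ccnd3, their kinases Cdk4 and Cdk6, and the retinoblastoma gene Rb1. They were taken by symbol from a table of 32883 genes measured by mRNA sequencing of liver tissue from 9 male Sprague-Dawley rats, with 1 library for each rat. The normal control group (rats N1, N3 and N12) was fed a normal diet. The DEN model group (M13, M17 and M24) was given 0.01% diethylnitrosamine (DEN), a liver carcinogen, by weekly intraperitoneal injection for 16 weeks. The PZH administration group (G27, G28 and G42) was given the same DEN course together with Pien-Tze-Huang (PZH), a traditional Chinese formula, so that both treated groups share the carcinogen. Groups follow the letter in each rat's name. The treatment label of the M rats also reads PZH, which conflicts with that letter, and the PZH dose and the week of collection of the sequenced rats are not given in the sources used here.

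D cyclins bind Cdk4 or Cdk6, and the active kinase phosphorylates the Rb1 protein, which otherwise holds E2F transcription factors in check and keeps a cell from entering S phase. INK4 proteins bind the kinases themselves and keep D cyclins from activating them, and the Cdkn1b protein (p27) binds cyclin-kinase complexes. Resting adult hepatocytes are mostly outside the cycle and re-enter it after liver injury, when Ccnd1 is the D cyclin best known to rise, while Cdkn2a is a tumour suppressor that is kept near silent in healthy tissue and accumulates in many stressed or senescent cells.

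Total counts ranged from 14922973 to 27161496 per rat, the latter in G27, and Spearman's rho across genes was 0.948 to 0.982 between rats of 1 group. Levels are given as TMM-scaled FPKM, the deposited FPKM divided by the edgeR scaling factor of the rat, which allows genes to be set side by side per length of transcript. These factors were 0.731 to 0.799 in normal control, 1.21 to 1.58 in DEN model and 0.863 to 0.941 in PZH administration rats. Scaling by library totals alone moved the median over all tested genes, on the log2 fold change scale, by 0.87 for DEN model against normal control, by -0.67 for PZH administration against DEN model and by 0.23 for PZH administration against normal control, and every direction below is relative to the TMM scaling. Log2 fold changes come from edgeR's quasi-likelihood test, are given with their SE, and were called at a Benjamini-Hochberg adjusted p under 0.05 over all genes tested. Liver RNA is a mixture of cell types, and in these samples fewer cells of a type and less RNA per cell cannot be told apart.

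The gate genes moved mainly upward in DEN model livers. Of the 10 genes, 7 rose (Cdkn2a, Cdkn2b, Cdkn2c, Ccnd1, Ccnd2, Cdk4 and Cdk6) and 0 fell, where 25.3% of the 14255 genes tested rose, 20.5% fell and 45.8% were called in either direction. The rats of both groups did not overlap in 8 of the 10 genes, beside 58.8% of all genes tested. The median log2 fold change of the 10 genes was 1.07, beside 0.029 over all genes tested. Cdkn1b, Ccnd3 and Rb1 did not pass the test, though all 10 genes were called higher under library totals. Under that scaling 8126 of all 14255 genes tested were called higher and 958 lower. The 3 INK4 genes passed the count filter through the DEN model rats alone, since normal control rats had too few of their reads, so their part in these counts is no support for a shift of the whole gate.

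In what follows, with DEN stands for DEN model against normal control rats and after PZH for PZH administration against DEN model rats, which are different animals. With PZH added to DEN, 3 of these 10 genes were lower than in DEN alone, namely Cdkn2a, Cdkn2b and Ccnd2, and 0 were higher. Cdkn2a was again tested only because of its reads in the DEN model rats, so its call adds no support to this count. Over all 14272 genes tested, 10.3% were lower, 8.72% were higher and 19.1% were called in either direction. The rats of both groups did not overlap in 4 of the 10 genes, beside 40.8% of all genes, and the median log2 fold change was -0.33. Under library totals 7 of the 10 were lower, with Ccnd1, Ccnd3, Cdk4 and Cdk6 added, beside 5696 of all 14272 genes. Against normal control rats, Cdkn2c was the 1 gate gene of the 9 tested that stood higher and 0 stood lower, where 4.07% of 13348 genes stood higher, 1.15% stood lower and 5.21% were called in either direction. The rats of these groups did not overlap in 3 of the 9 genes, beside 24.2% of all genes. Cdkn2c passed the count filter here through the PZH administration rats, where it is high, and with at least 10 counts required in every rat it was not tested. Cdkn2a had too few counts in both of these groups to be tested. In the directions with 0 calls in edgeR's test, 0 of the genes had an unadjusted p under 0.05 and 0 were called under library totals. The DEN model rats serve in 2 of these comparisons, so the values of a gene in them are not independent of each other.

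The study's own methods called genes at a log2 fold change beyond 2 in size with p under 0.001 before adjustment. Here these thresholds were applied to the fold changes and p-values of edgeR's quasi-likelihood test above and not to the study's own comparisons. The shares below are therefore not those of the study. At these thresholds the INK4 genes made up every call among the 10. Cdkn2a, Cdkn2b and Cdkn2c passed in DEN model against normal control (12.3% of all genes passed), Cdkn2a passed in PZH administration against DEN model (2.43%), and Cdkn2c passed in PZH administration against normal control (2.32%). Each of these genes entered its test through the group in which it was high, so these counts describe the levels and support nothing further.

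**Figure D1:**
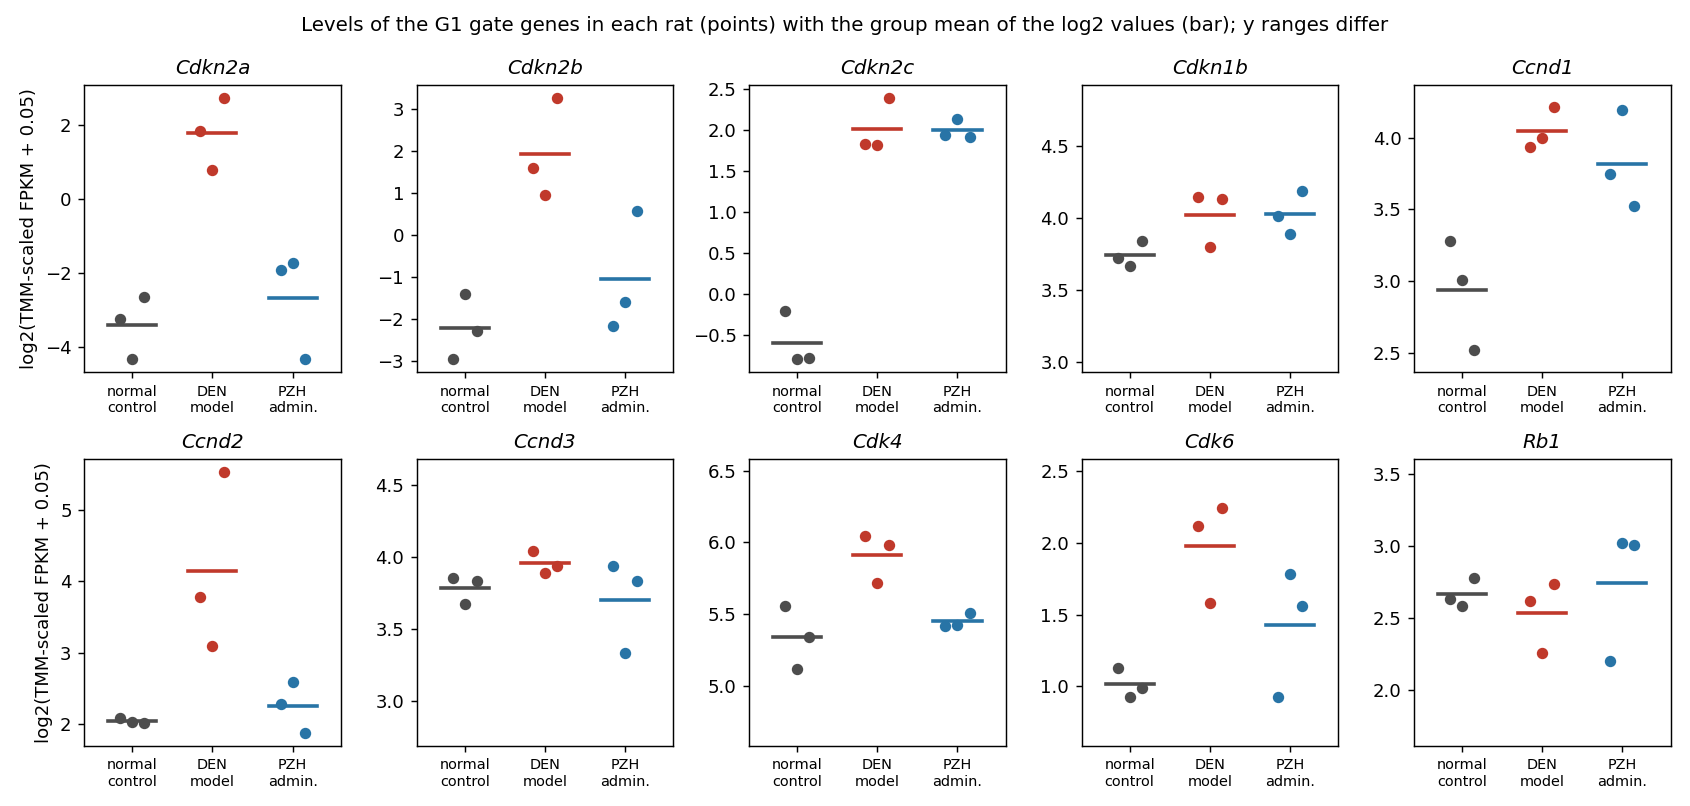
TMM-scaled FPKM of the 10 genes in each rat, drawn as log2 with 0.05 FPKM added, with points for rats, bars for the group means of the log2 values and a y range of its own for each gene. Cdkn2a, Cdkn2b and Ccnd2 are higher in each of the 3 DEN model rats than in any other rat, with Cdkn2b in G42 the nearest to them, whereas Cdkn2c is at a like level in DEN model and PZH administration rats.

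Cdkn2a and Cdkn2b lie next to each other on chromosome 5, at 5:107823330-107841175 and 5:107845951-107858104 in the coordinates of the authors' file, whose build is not given in the sources used here, with 4775 bases between them. Cdkn2c lies apart on the same chromosome at 5:129347732-129352886. The 250 bases in front of the start that RefSeq (GRCr8) gives for each are shown because these 3 genes had the highest fold changes of the 10 in DEN model livers. Capitals mark the Sp1 GC box, GGGCGG on either strand, the one motif found in them. The windows are chr5:109107957-109108206 for Cdkn2a, chr5:109134856-109135105 for Cdkn2b and chr5:129644892-129645141 for Cdkn2c, all on the minus strand and written 5′ to 3′.
Cdkn2a: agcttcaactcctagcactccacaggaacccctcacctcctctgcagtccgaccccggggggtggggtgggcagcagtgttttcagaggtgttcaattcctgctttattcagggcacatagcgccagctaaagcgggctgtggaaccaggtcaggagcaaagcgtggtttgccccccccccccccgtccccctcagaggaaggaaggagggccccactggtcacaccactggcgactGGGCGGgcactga
Cdkn2b: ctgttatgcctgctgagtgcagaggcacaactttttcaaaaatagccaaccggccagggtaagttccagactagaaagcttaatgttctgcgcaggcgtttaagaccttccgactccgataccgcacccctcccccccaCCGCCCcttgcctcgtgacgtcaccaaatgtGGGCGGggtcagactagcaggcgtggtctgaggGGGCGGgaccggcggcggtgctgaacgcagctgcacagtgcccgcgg
Cdkn2c: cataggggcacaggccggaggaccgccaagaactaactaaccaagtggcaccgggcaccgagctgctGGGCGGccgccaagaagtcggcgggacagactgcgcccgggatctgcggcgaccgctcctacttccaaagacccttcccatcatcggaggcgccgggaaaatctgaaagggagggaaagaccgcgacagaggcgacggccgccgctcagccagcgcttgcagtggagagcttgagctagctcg
The Cdkn2a window holds 1 GC box at position -13 and 8 CG pairs, and its start lies inside the RefSeq gene, whose Arf transcript is known to start further upstream. The Cdkn2b window holds 3 GC boxes, at -111, -80 and -47, and 18 CG pairs. The Cdkn2c window holds 1 GC box at -183 and 24 CG pairs. The median window of the 33469 in the RefSeq table has 5 CG pairs, and 30.5% of them hold a GC box, so such a match is common. Of the other motifs searched on both strands, the E2F forms TTTGGCGC (in 0.412% of all windows) and TTTCGCGC (in 0.248%) and the AP-1 motif TGACTCA (in 4.05%) had no match in the 7 gate genes with a window in the table, and the E-box CACGTG (in 5.59%) matched 3 times in Cdk4. These are matches of letters and not measured sites.

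Cdkn2a encodes p16Ink4a and, from another first exon and reading frame, the p53-pathway protein Arf, and counts per gene do not separate these transcripts. It was close to unread in normal liver, with 1, 0 and 2 counts in N1, N3 and N12 (0.0559, 0 and 0.109 TMM-scaled FPKM). The DEN model rats M13, M17 and M24 had 116, 47 and 221 counts (3.52, 1.67 and 6.57 FPKM). With PZH it had 7, 5 and 0 counts in G27, G28 and G42 (0.214, 0.249 and 0 FPKM). Each DEN model rat thus stood above all 6 other rats, and the PZH administration and normal control rats overlapped.

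From 384 counts against 3, the ratio of DEN model to normal control was 71.5, with a 95% counting interval of 24.3 to 348 that holds counting error only. The ratio of PZH administration to DEN model was 0.0408 (0.0209 to 0.0722), and that of PZH administration to normal control was 2.92 (0.788 to 16.1). The fitted log2 fold change of Cdkn2a in DEN model livers was 6.01 ± 0.83 (adjusted p = 0.000863 in the quasi-likelihood test of edgeR), a value that depends on the prior count because the gene passed the count filter through the DEN model rats alone. After PZH the fitted value was -4.54 ± 0.80 (adjusted p = 0.0137 in edgeR's test), with the same limit, since here too the gene passed the filter through the DEN model rats alone. Without rat M13 that call was lost (log2 fold change -4.62, adjusted p = 0.0515 in edgeR's test).

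Cdkn2b, the p15Ink4b inhibitor and a classical target of TGF-beta signalling, moved with its neighbour in the DEN model rats. Its level was 0.0794, 0.327 and 0.155 FPKM in the normal control rats N1, N3 and N12 and 2.97, 1.91 and 9.61 FPKM in M13, M17 and M24. In the PZH administration rats it was 0.174 FPKM in G27, 0.283 in G28 and 1.45 in G42. Rat G42 therefore stood above every normal control rat but under every DEN model rat, in the liver where Cdkn2a had no count at all.

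The rise of Cdkn2b in DEN model livers was 4.71 ± 0.74 on the log2 scale, or 26.2-fold (adjusted p = 0.00152 in edgeR's test). The fall after PZH, 2.95 on the log2 scale with an SE of 0.87, only just passed (adjusted p = 0.0493 in edgeR's test). That call was lost when M13, M24, G27 or G28 was left out, with adjusted p from 0.0943 to 0.165 in edgeR's test, and without M24 the log2 fold change was -1.95. Against normal control, the PZH administration rats gave 1.74 ± 0.86, with a 95% interval of -0.20 to 3.68 (adjusted p = 0.327 in edgeR's test).

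Cdkn2c, the p18Ink4c inhibitor, rose with DEN and stood at a like level in the rats given PZH. It stood at 0.818, 0.527 and 0.533 FPKM in N1, N3 and N12, at 3.50, 3.46 and 5.19 in M13, M17 and M24, and at 3.78, 4.32 and 3.73 in G27, G28 and G42. The rats of both DEN-treated groups overlapped each other and lay clear of all normal control rats. The log2 fold change was 2.70 ± 0.37 for DEN model against normal control (6.52-fold, adjusted p = 0.000795) and 2.65 ± 0.35 for PZH administration against normal control (6.28-fold, adjusted p = 0.00585, edgeR's test for both). Between PZH administration and DEN model it was -0.016 ± 0.26, with a 95% interval of -0.62 to 0.59 and an adjusted p of 0.973 in edgeR's test. Under library totals this last value was -0.71 without a call, which is -0.039 relative to the median of all genes, so the like level holds for the TMM scaling. Each of the calls against normal control held when any 1 rat was left out. Normal control rats had only 9 to 15 counts of this gene, so its normal level is known less well than its level in the other groups.

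**Figure D2:**
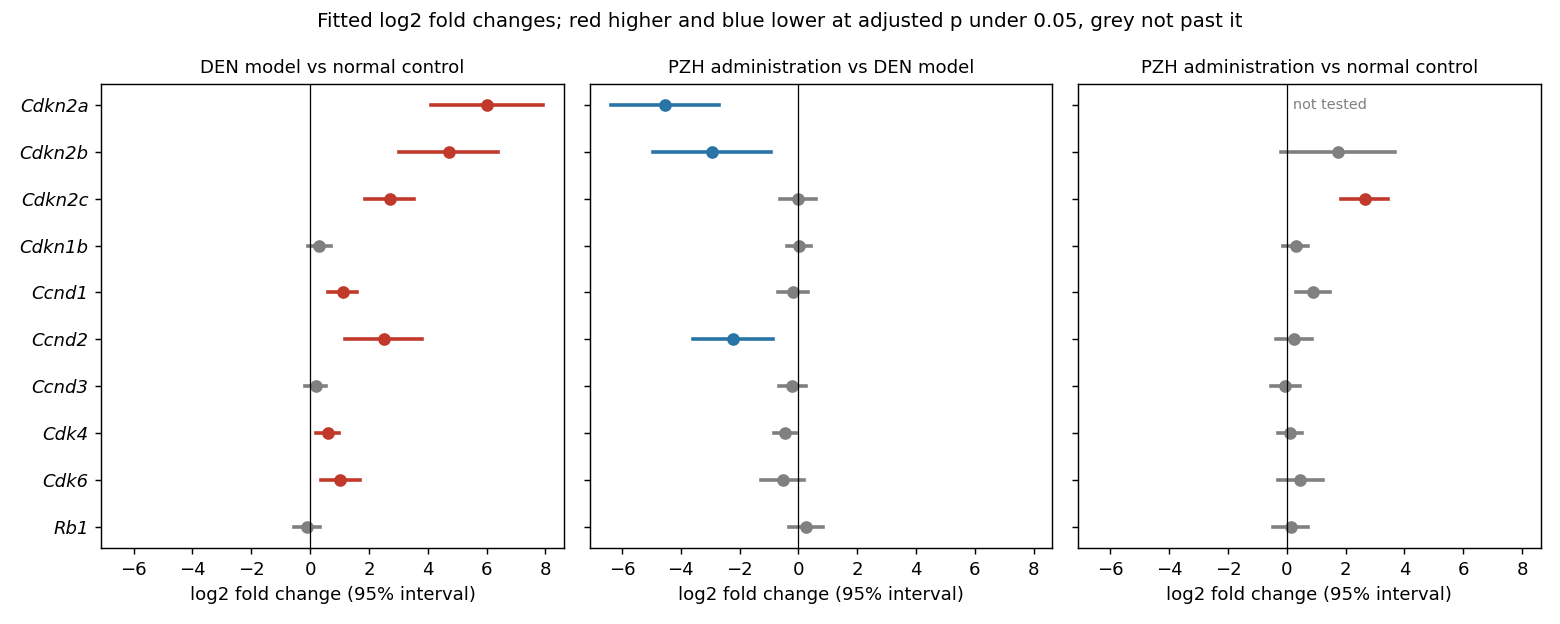
Log2 fold change of each gene in the 3 comparisons, from edgeR's quasi-likelihood test, with bars for 95% intervals, red for genes called higher, blue for genes called lower and grey for the others. The INK4 genes and Ccnd2 lie far to the right for DEN model against normal control, and Cdkn2c lies at 2.65 for PZH administration against normal control.

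The make-up of the INK4 family therefore shifted with the group. Summed over the 3 genes, the family's level was 0.797 to 0.953 FPKM in normal control, 7.03 to 21.4 in DEN model and 4.17 to 5.18 in PZH administration rats. Cdkn2c held 61.7% to 85.8% of that sum in normal control rats, 24.3% to 49.2% in DEN model rats and 72% to 90.7% in PZH administration rats. In normal control rats such shares rest on very few counts. The shares are per length of transcript and a description, with no test.

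Cdkn1b was a far more abundant inhibitor than any INK4 gene in normal liver and varied little. Its level was 13.1, 12.7 and 14.3 FPKM in N1, N3 and N12, 17.7, 13.8 and 17.5 in M13, M17 and M24, and 16.1, 14.8 and 18.2 in G27, G28 and G42. DEN model and normal control rats overlapped, as did DEN model and PZH administration rats. The log2 fold change was 0.31 ± 0.17 in DEN model livers (95% interval -0.081 to 0.70, adjusted p = 0.172 in edgeR's test) and 0.025 ± 0.18 after PZH (-0.38 to 0.43, adjusted p = 0.939 in edgeR's test), the latter turning to -0.66 under library totals (adjusted p = 0.0513 in edgeR's test). The PZH administration rats lay just above the normal control rats, by 0.30 ± 0.19 on the log2 scale without a call (adjusted p = 0.459 in edgeR's test).

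The D cyclins did not move as 1 family. Ccnd2 was higher with DEN and lower after PZH, Ccnd1 was higher with DEN and was not called lower after PZH, and Ccnd3 was not called in any of the 3 comparisons under the TMM scaling. Under library totals Ccnd3 was called higher with DEN and lower after PZH, and Ccnd1 was called lower after PZH.

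Ccnd1, the D cyclin of regenerating hepatocytes, was at 9.65, 7.98 and 5.69 FPKM in N1, N3 and N12 and at 15.2, 15.9 and 18.5 in M13, M17 and M24. The PZH administration rats G27, G28 and G42 had 13.3, 18.2 and 11.4 FPKM. All 6 DEN-treated rats were above all 3 normal control rats. The log2 fold change in DEN model livers was 1.11 ± 0.22, or 2.16-fold (adjusted p = 0.00397 in edgeR's test). After PZH it was -0.18 ± 0.22 (95% interval -0.69 to 0.32, adjusted p = 0.592 in edgeR's test).

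PZH administration against normal control gave 0.89 ± 0.26 for Ccnd1, or 1.85-fold, without a call (adjusted p = 0.0882 in edgeR's quasi-likelihood test). That difference was called by DESeq2 (adjusted p = 0.0276), by edgeR's exact test (0.0311) and under library totals (0.0344 in edgeR's quasi-likelihood test).

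Ccnd2 was even among normal control rats, at 4.20, 4.04 and 3.99 FPKM in N1, N3 and N12. It was uneven among DEN model rats, at 13.7, 8.50 and 46.2 FPKM in M13, M17 and M24. In G27, G28 and G42 it was 4.83, 5.95 and 3.63 FPKM. Each DEN model rat was above all other rats, and the PZH administration rats overlapped with the normal control rats. The highest DEN model rat was 5.43 times the lowest.

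The rise of Ccnd2 with DEN was 2.503 ± 0.58 on the log2 scale, or 5.67-fold (adjusted p = 0.00815 in edgeR's test), and was still called without rat M24, at 1.47 (adjusted p = 0.00561 in edgeR's test). After PZH it fell by 2.22 on the log2 scale (SE 0.59, adjusted p = 0.0364 in edgeR's test). That call was lost when M13, M24, G27, G28 or G42 was left out, with adjusted p from 0.0692 to 0.106 in edgeR's test, and without M24 the log2 fold change was -1.18. PZH administration against normal control gave 0.24 ± 0.27, with a 95% interval of -0.38 to 0.86 (adjusted p = 0.723 in edgeR's test).

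Per length of transcript, Ccnd3 was the most abundant D cyclin of normal liver, at 14.4, 12.7 and 14.2 FPKM in N1, N3 and N12. Before division by length, Ccnd1 had more reads there, with 849, 653 and 512 counts against 352, 289 and 356 for Ccnd3. The level of Ccnd3 was 16.4, 14.8 and 15.3 FPKM in M13, M17 and M24 and 15.2, 10.01 and 14.2 in G27, G28 and G42. Although all 3 DEN model rats were above all normal control rats, the log2 fold change of 0.19 ± 0.15 did not pass (95% interval -0.16 to 0.54, adjusted p = 0.342 in edgeR's test). After PZH it was -0.21 ± 0.20 (-0.67 to 0.25, adjusted p = 0.498 in edgeR's test), with G28 as the lowest rat of all 9. Against normal control, PZH administration rats gave -0.056 ± 0.22 (-0.55 to 0.43, adjusted p = 0.930 in edgeR's test), a value that turned to 0.16 under library totals.

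These family shares are per length of transcript and rest on the lengths in the deposited FPKM. Ccnd3 held 50.9% to 59.5% of the summed D cyclin level in normal control rats, 19.1% to 37.8% in DEN model rats and 29.3% to 48.6% in PZH administration rats. Ccnd2 held 14.9% to 16.7% in normal control rats, 21.7% to 57.8% in DEN model rats and 12.4% to 17.4% in PZH administration rats. In rat M24 Ccnd2 made up 57.8% of a summed D cyclin level of 79.9 FPKM. The summed level was 23.9 to 28.2 FPKM in normal control, 39.2 to 79.9 in DEN model and 29.3 to 34.2 in PZH administration rats, and the 3 ranges did not overlap.

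**Figure D3:**
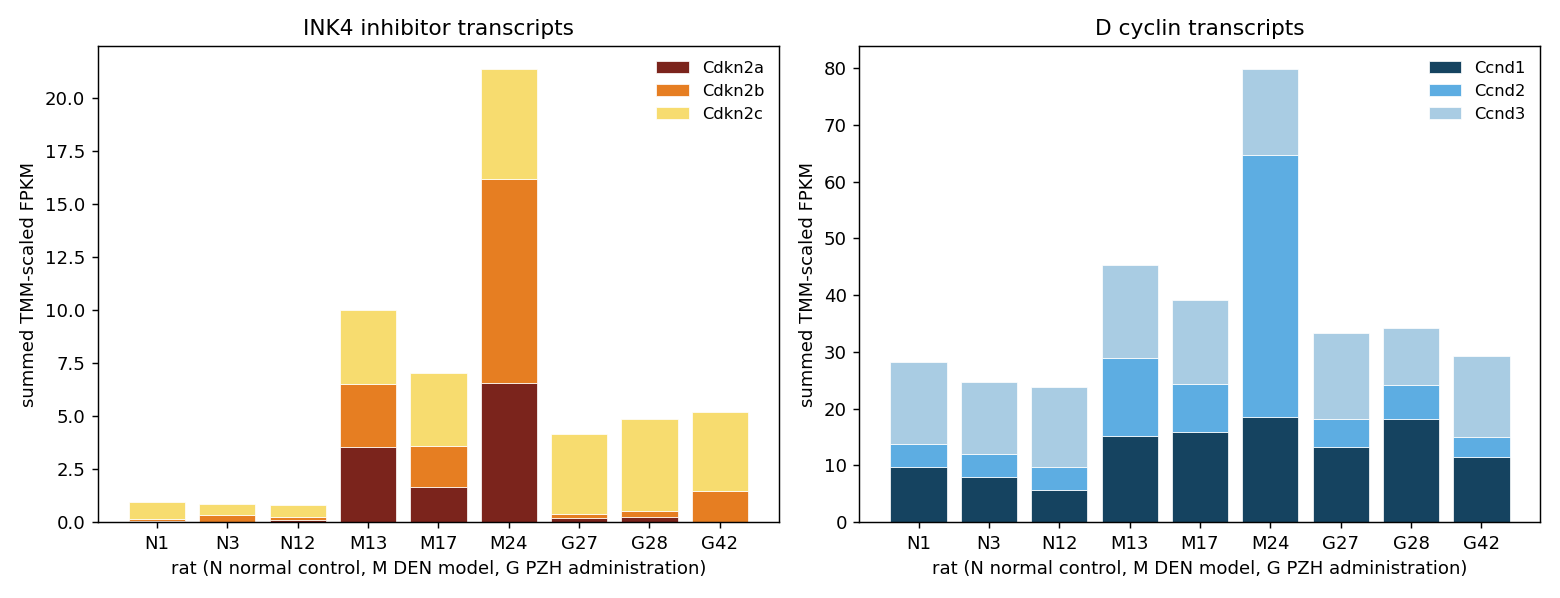
Stacked bars of the summed TMM-scaled FPKM of the 3 INK4 genes and of the 3 D cyclins in each rat. The INK4 sum is 7.03 to 21.4 FPKM in DEN model rats and under 1 FPKM in normal control rats, and Ccnd2 makes up 57.8% of the D cyclin sum in rat M24.

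Both kinases rose moderately with DEN. Per length of transcript, the level of Cdk4 was the highest of the 10 in every group. It was at 47.0, 34.7 and 40.5 FPKM in N1, N3 and N12 and at 66.1, 52.4 and 63.3 in M13, M17 and M24. The PZH administration rats G27, G28 and G42 lay close together at 42.6, 42.9 and 45.5 FPKM, under every DEN model rat and within the range of the normal control rats. The log2 fold change in DEN model livers was 0.59 ± 0.17, or 1.51-fold (adjusted p = 0.0220 in edgeR's test). This call was lost when N12, M13 or M24 was left out, with adjusted p from 0.0659 to 0.0919 in edgeR's test. After PZH it was -0.45 ± 0.16 (95% interval -0.82 to -0.081), which did not pass after adjustment (adjusted p = 0.0847 in edgeR's test).

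Cdk6 was at 2.14, 1.85 and 1.94 FPKM in N1, N3 and N12, at 4.28, 2.94 and 4.69 in M13, M17 and M24, and at 1.85, 3.39 and 2.90 in G27, G28 and G42. DEN model and normal control rats did not overlap, and PZH administration rats overlapped with both. The log2 fold change in DEN model livers was 1.03 ± 0.29, or 2.04-fold (adjusted p = 0.0201 in edgeR's test), and the call was lost when N12, M13 or M24 was left out (adjusted p from 0.0545 to 0.0775 in edgeR's test). After PZH it was -0.54 ± 0.32, with a 95% interval of -1.27 to 0.20 (adjusted p = 0.270 in edgeR's test). Against normal control, PZH administration rats gave 0.11 ± 0.18 for Cdk4 (95% interval -0.30 to 0.52) and 0.46 ± 0.34 for Cdk6 (-0.32 to 1.23), without a call. At the same scale, Cdk4 stood at 40.7 ± 6.16 FPKM (SD, n = 3) and Cdk6 at 1.98 ± 0.148 FPKM (SD, n = 3) in normal liver.

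Rb1, the substrate of these kinases, was the gene of the 10 with the smallest log2 fold change in DEN model livers. Its level was 6.14, 5.95 and 6.83 FPKM in N1, N3 and N12, 6.08, 4.73 and 6.61 in M13, M17 and M24, and 4.54, 8.07 and 7.99 in G27, G28 and G42. The 3 groups overlapped. The log2 fold change was -0.10 ± 0.19 for DEN model against normal control (95% interval -0.54 to 0.34, adjusted p = 0.693 in edgeR's test) and 0.26 ± 0.26 for PZH administration against DEN model (-0.33 to 0.85, adjusted p = 0.517 in edgeR's test). These intervals still allow a moderate change in either direction. The sign of Rb1 turns with the scaling, since under library totals the first value became 0.78 (adjusted p = 0.0260 in edgeR's test), which is -0.11 relative to the median of all genes under that scaling. PZH administration against DEN model likewise turned to -0.42 under library totals. Against normal control, PZH administration rats gave 0.13 ± 0.26 (-0.46 to 0.71, adjusted p = 0.861 in edgeR's test). RNA levels say nothing of the phosphorylation of the protein.

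Ordered by mean level per length of transcript, normal liver ran from Cdk4 at 40.7 FPKM through Ccnd3 (13.8), Cdkn1b (13.4), Ccnd1 (7.77), Rb1 (6.31), Ccnd2 (4.07), Cdk6 (1.98), Cdkn2c (0.626) and Cdkn2b (0.187) to Cdkn2a (0.0550). Of these neighbours, Ccnd3 and Cdkn1b, Ccnd1 and Rb1, and Cdkn2b and Cdkn2a overlapped between rats. In DEN model livers Cdk4 (60.6 FPKM) stood clear, followed by Ccnd2 (22.8 ± 20.4, SD, n = 3), Ccnd1 (16.5), Cdkn1b (16.3) and Ccnd3 (15.5), which overlapped one with the next. Rb1 (5.81), Cdkn2b (4.83), Cdkn2c (4.05), Cdk6 (3.97) and Cdkn2a (3.92) came last and also overlapped one with the next. In PZH administration livers the order was Cdk4 (43.7), Cdkn1b (16.4), Ccnd1 (14.3), Ccnd3 (13.2), Rb1 (6.87), Ccnd2 (4.801), Cdkn2c, Cdk6 (2.72), Cdkn2b (0.635) and Cdkn2a (0.154). There Cdkn1b, Ccnd1 and Ccnd3 overlapped one with the next, as did Rb1, Ccnd2 and Cdkn2c, and Cdkn2c (3.95 ± 0.329, SD, n = 3) lay above Cdk6 without overlap.

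M24 was the highest of the 3 DEN model rats in 7 of the 10 genes and M13 in the other 3, and Cdkn2a, Cdkn2b and Ccnd2 all ran in the order M24, M13, M17. Of the 6 cell type marker lists, the ductular, stellate and lymphocyte sums ran in the same order. The summed level of 6 ductular cell markers (Krt19, Krt7, Epcam, Sox9, Cldn7 and Cftr) was 668 CPM, a unit of counts scaled to an equal TMM-scaled library size, in M24, 622 in M13 and 199.9 in M17. The sum of 8 stellate cell and myofibroblast markers, collagens among them, was 3210 CPM in M24, 1964 in M13 and 1042 in M17, and the lymphocyte sum was 29.97, 12.03 and 7.38 CPM. The hepatocyte sum ran the other way, at 20010 CPM in M24, 28610 in M13 and 47930 in M17, and the macrophage and endothelial sums were highest in M13 and lowest in M24. Their part in the levels of Cdkn2a, Cdkn2b and Ccnd2 was not tested.

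By group, the ductular sum was 12.6 to 19.9 CPM in normal control, 199.9 to 668 in DEN model and 79.6 to 96.8 in PZH administration rats, and 6 of 6 ductular markers rose with DEN and 6 of 6 fell after PZH. Krt7 and Cldn7 had no count in N1 and N3. Against normal control they passed the count filter through the DEN-treated rats, where they are high, so their calls there add no support. Cftr and Sox9, at means of 0.0423 and 0.129 FPKM in normal control rats, may have passed in the same way. Their calls against normal control therefore add no support either. The stellate sum was 193.9 to 318.6, 1042 to 3210 and 596.8 to 718.5 CPM in the same order, with 6 of 8 markers higher and then 6 of 8 lower, and Lum had no count in N12. Against normal control, 5 of 6 ductular and 4 of 8 stellate markers were still higher in PZH administration rats, beside the higher Cdkn2c. The hepatocyte sum was 123800 to 133000 CPM in normal control, 20010 to 47930 in DEN model and 90840 to 127800 in PZH administration rats, with 5 of 8 markers lower with DEN and 4 of 8 higher after PZH. No hepatocyte marker was at 0 in any rat, as the liver label requires. Of the macrophage markers 2 of 7 were lower with DEN and 4 of 7 lower after PZH. Of the endothelial markers 1 was higher and 2 were lower of 5 with DEN. Of the lymphocyte markers 3 of 5 were higher with DEN. Among these, Cd3g and Cd2 passed the count filter through the DEN model rats, where they are high, so their calls add no support. The directions of the macrophage and endothelial lists turned with the scaling, since under library totals 5 of 7 macrophage markers were higher and 1 lower with DEN, and 2 of 5 endothelial markers were higher. Over all genes tested, 8126 of 14255 were higher and 958 lower with DEN under that scaling, beside 25.3% higher and 20.5% lower under the TMM scaling. After PZH, 8.72% of all genes were higher and 10.3% lower, and 4.07% stood higher in PZH administration than in normal control rats (TMM scaling). The share of these cell types in any value above was not tested.

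**Figure D4:**
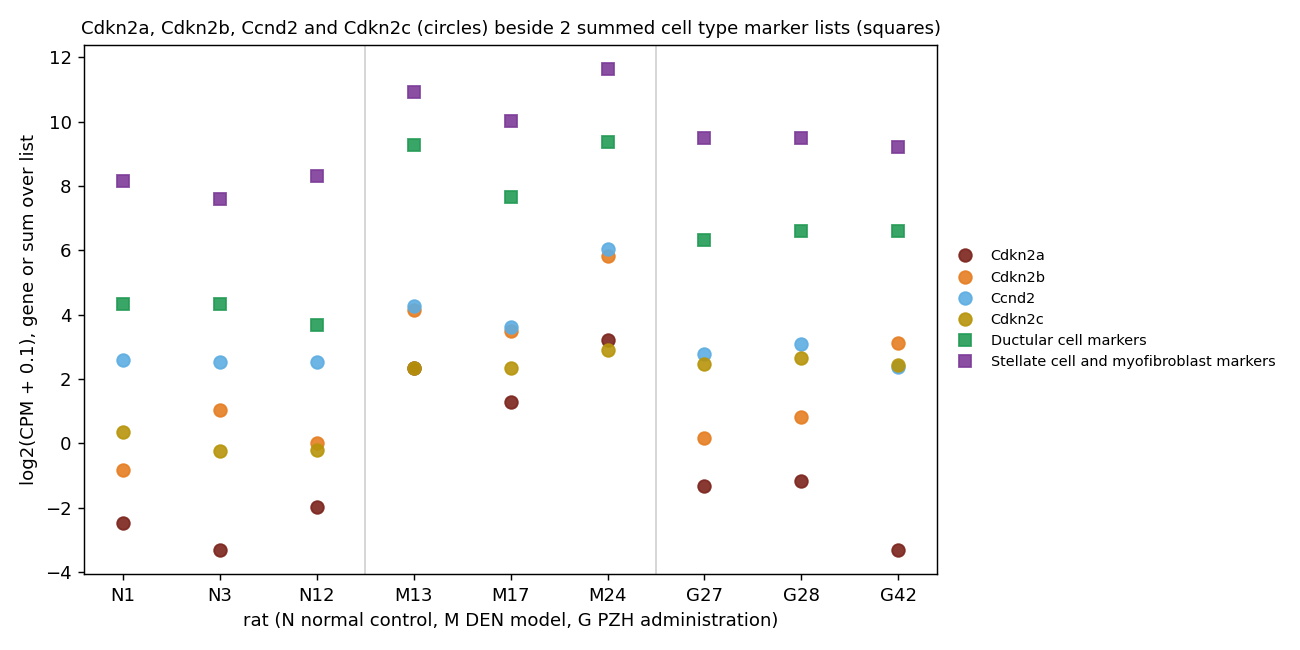
Log2(CPM + 0.1) of Cdkn2a, Cdkn2b, Ccnd2 and Cdkn2c (circles) and of the summed ductular and stellate cell markers (squares) in each of the 9 rats. All of them are higher in the 3 DEN model rats than in the 3 normal control rats, and Cdkn2c alone of the 4 genes has like levels in the DEN model and PZH administration rats.

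The wider G1/S machinery was read from 61 further genes. With DEN, 26 of the 61 rose and 9 fell, their median log2 fold change was 0.50, and under library totals 43 rose and 1 fell. With at least 10 counts required in every rat, 20 were called higher and 7 lower. Over all 14255 genes tested, 25.3% rose and 20.5% fell, and under library totals 8126 rose and 958 fell. After PZH, 2 were higher and 12 lower with a median of -0.31, and all 34 calls under library totals were lower. Over all 14272 genes, 8.72% were higher and 10.3% lower, and under library totals 556 were higher and 5696 lower. Most calls under library totals were thus lower over all genes too, and the shares were not compared by a test. The count after PZH under the TMM scaling is fragile, since 1 gene was called without M13 and 1 without M24. PZH administration against normal control gave 3 calls of 58 tested, all of them higher. Over all 13348 genes, 4.07% were higher and 5.21% were called in either direction, so this count is near the general share.

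The E2F target genes, which E2F factors switch on once Rb1 is inactivated, were the group with the most calls. With DEN, 15 of 16 rose, at a median of 2.57 on the log2 scale, and 9 were lower after PZH with a median of -1.04. In both comparisons Cdc6 passed the count filter through the DEN model rats, where it is high. Its calls therefore add no support to these counts. Ccna2, at a mean of 0.163 FPKM in normal control rats, may have passed against them in the same way. Its calls against normal control therefore add no support either, and other genes that are low in normal control rats may share this limit. Examples chosen after their values were seen are the S-phase cyclin Ccna2 (4.797 with DEN, adjusted p = 0.000274, and -1.57 with PZH added, adjusted p = 0.0479, by edgeR) and the proliferation marker Mki67 (4.24, adjusted p = 2.56e-05, and -1.17, adjusted p = 0.0369 in edgeR's test). Ccna2, Mcm6 and Mki67 were the 3 genes of the lists still higher than normal with PZH, and Mki67 stood 3.04 above on the log2 scale (adjusted p = 0.00503 in edgeR's test).

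Among genes taken by their role, the cyclins of the next step rose with DEN beside the gate genes. Ccne1 went from 0.472 ± 0.373 to 2.39 ± 0.709 FPKM (SD, n = 3; log2 fold change 2.36, adjusted p = 0.00874 in edgeR's test) and Ccne2 from 0.748 to 2.30 FPKM (1.64, adjusted p = 0.00536 in edgeR's test). Their kinase Cdk2 fell from 7.80 ± 0.902 to 3.999 ± 0.0380 FPKM (-0.94, adjusted p = 0.00384 in edgeR's test), a value that was -0.084 under library totals and not called there. After PZH, Ccne1 gave -0.89 (adjusted p = 0.106), Ccne2 -0.44 (adjusted p = 0.430) and Cdk2 0.28 (adjusted p = 0.413, edgeR's test for each). Skp2, which marks the Cdkn1b protein for degradation, rose with DEN (2.02, adjusted p = 0.00389) and was lower after PZH (-1.49, adjusted p = 0.0403, edgeR's test for both).

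Cdkn1a, the p21 inhibitor and a p53 target, moved against the INK4 genes. It was at 27.3 ± 13 FPKM (SD, n = 3) in normal control and 9.001 ± 2.101 in DEN model rats, a log2 fold change of -1.58 (adjusted p = 0.0078 in edgeR's test), which was -0.75 and not called under library totals (adjusted p = 0.0972 in edgeR's test). After PZH it was at 11.2 ± 4.31 FPKM, 0.35 on the log2 scale (adjusted p = 0.468 in edgeR's test). Cdkn1c was low in every group, at 0.434 to 0.571 FPKM by group mean.

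Of the other pocket proteins, relatives of Rb1, Rbl1 (p107) rose with DEN by 1.09 on the log2 scale (adjusted p = 0.0480 in edgeR's test) and Rbl2 (p130), at 16.1 ± 4.77 FPKM the more abundant in normal liver, gave -0.49 (adjusted p = 0.123 in edgeR's test). E2f4, an E2F that partners these proteins in resting cells, gave -0.049 (adjusted p = 0.865 in edgeR's test). Among E2F and DP factors 4 of 9 rose with DEN, beside 25.3% of all genes tested. Of these, E2f7 and E2f8 passed the count filter through the DEN model rats, where they are high, so their calls add no support.

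The list of repressors and activators of the Ink4a-Arf locus had 2 of 15 genes higher and 4 lower with DEN, and 1 of 15 lower as the single call after PZH. Over all genes tested, 25.3% were higher and 20.5% lower with DEN, and 10.3% were lower after PZH. Under library totals the balance turned, with 8 higher and 0 lower with DEN in edgeR's test and 7 lower after PZH. Over all genes tested it turned too, with 8126 of 14255 higher and 958 lower with DEN, and 5696 of 14272 lower after PZH. These counts are thus no result about the regulators of the locus. Its Polycomb members include Bmi1, which was lower with DEN (-0.60, adjusted p = 0.0250 in edgeR's test) but 0.27 under library totals, and Ezh2, which gave 0.73 (adjusted p = 0.0764 in edgeR's test). After PZH, Bmi1 gave 0.46 (adjusted p = 0.171) and Ezh2 -0.44 (adjusted p = 0.370, edgeR's test for both). Cyclin D and p27 turnover genes were called in both directions with DEN, 2 higher and 2 lower of 10 (4 and 1 under library totals), and the CDK-activating kinase had 0 calls of 3 in edgeR's test, and 0 of the 3 had an unadjusted p under 0.05, whereas under library totals 3 of 3 were called higher.

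**Figure D5:**
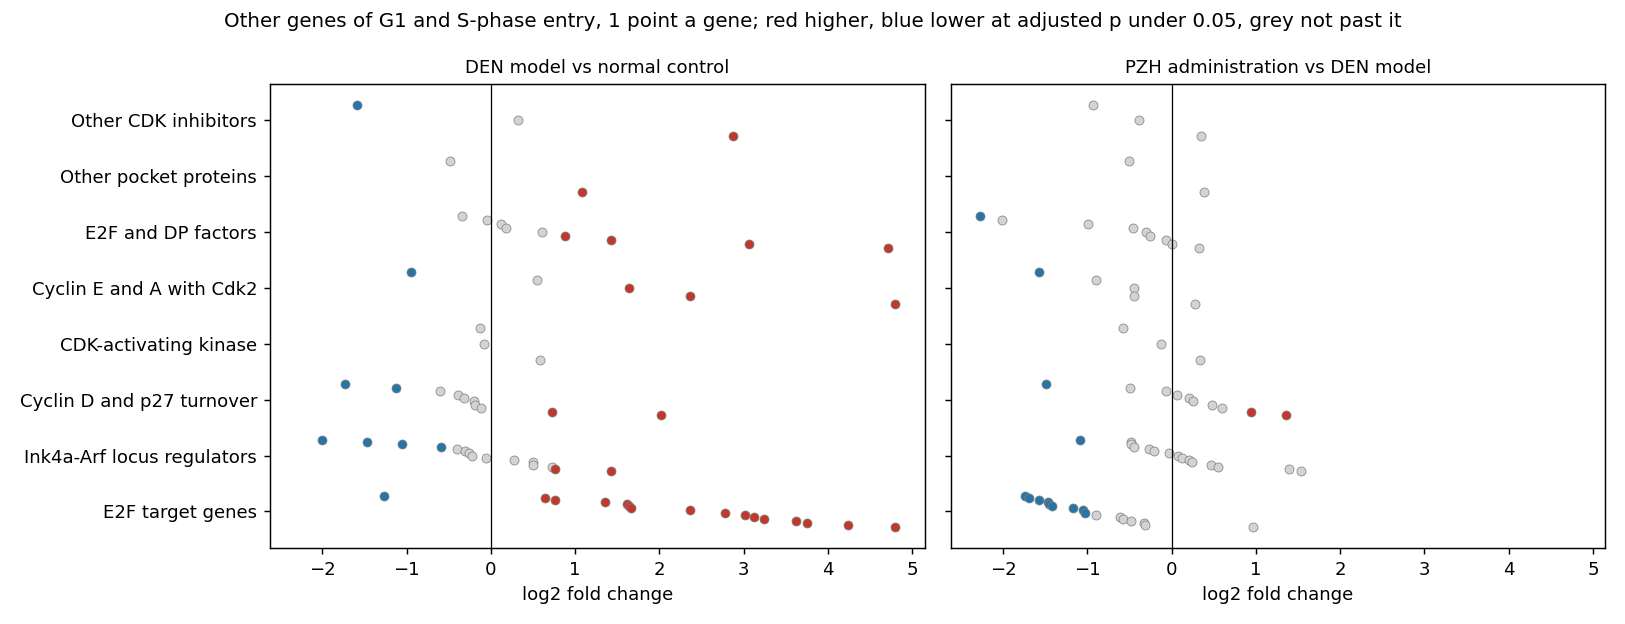
Log2 fold changes of the G1/S list genes with DEN and after PZH, 1 row for each list and 1 point for each gene, red where called higher, blue where called lower and grey otherwise. With DEN, 15 of the 16 E2F target genes are called higher, and 9 of them are called lower after PZH.

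Of the protein-coding neighbours of Cdkn2a and Cdkn2b within 500000 bases, the 3 with enough counts to be tested were not called with DEN. The processed pseudogene AABR07049149.1, the other neighbour tested, was higher with DEN (1.21, adjusted p = 0.0250) and gave -0.52 after PZH (adjusted p = 0.270, edgeR's test for both). Mtap, the next gene on the side of Cdkn2a, gave 0.49 with DEN (adjusted p = 0.0918) and -0.13 after PZH (adjusted p = 0.680, edgeR's test for both). Klhl9 gave -0.11 (adjusted p = 0.615) and 0.15 (adjusted p = 0.590, edgeR's test for both). Dmrta1 gave -0.19 with DEN (adjusted p = 0.793) and was lower after PZH (-2.83, adjusted p = 0.0414, edgeR's test for both). No test compared the neighbours with Cdkn2a or Cdkn2b directly.

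By the root-mean-square difference between centred log2(CPM + 1) profiles over the 9 rats, among 14479 genes, Cdkn2a was most like Etv4 (0.181), Tnfsf18 (0.217) and Tmprss4 (0.241), where its own profile had a root-mean-square of 1.19. Etv4 averaged 0.107 CPM in normal control, 5.25 in DEN model and 0.273 in PZH administration rats. Ccnd1 was most like Zfp57 (0.114), Fen1 (0.164) and Plcxd2 (0.167), with an own value of 0.537. Fen1, a flap endonuclease of DNA replication, averaged 2.22, 6.83 and 4.87 CPM in the same order. Rb1 was most like Rngtt (0.108) and 2 genes without an official symbol, with an own value of 0.258. These are descriptions over 9 rats that share the groups.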

How the data were processed

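Liver mRNA of 9 rats was sequenced, 3 per group, and tabulated in 1 file. The count columns hold the authors' raw reads per gene, with no normalization. The FPKM columns were deposited as counts scaled by the authors for gene length and library size, and equal the count over length and library total. The submitters' processing notes name fastp, HISAT2 2.1.0, StringTie 1.3.3b and edgeR 3.30.3 without roles, and the counter and genome build are not given in the sources used here. The group means, log2 fold changes, P and Q columns hold the authors' comparisons and were not used.

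Counts were tested in R 4.3.3 with edgeR 4.0.16: filterByExpr (minimum count 10), TMM factors, then glmQLFit with glmQLFTest for the 6 rats compared, with Benjamini-Hochberg adjustment over all genes tested. The SE is the log2 fold change over the root of F. The pipeline was tested on simulated data. Depth limits the INK4 genes most, since 3 counts correspond to 0.125 to 0.252 CPM and the count-ratio intervals of Cdkn2a cover counting error only, while the other intervals come from the fit and include the spread between rats. Each library is labelled as 1 rat, so the tests set the group difference against the spread between rats, which edgeR moderates over all genes. Each group has 3 rats, for which an exact test of 3 against 3 without such moderation cannot go below 0.1. Alternatives were library totals, DESeq2 1.42.0, no count filter, a minimum of 10 counts in each rat, all 3 groups in 1 fit, edgeR's exact test, limma 3.58.1 on log2(FPKM + 0.1) and log2(FPKM + 1), the study's thresholds, and leaving out each rat in turn.

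The 10 genes and all lists were chosen with earlier results of these data known. Genes named from the lists were set by role, other named ones were chosen after their values were seen, and the 3 genes most like Cdkn2a, Ccnd1 and Rb1 were taken by the smallest profile difference. Cdkn2d, E2f1, Pecam1 and Cd79a were not analysed here. RefSeq windows (GRCr8) were matched by symbol for 7 of the 10 genes.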

Additional observations from a re-analysis of the deposited data

How the results depend on the processing

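Of the log2 fold changes of the 10 genes under all alternatives, 340 kept direction and call, 21 gained a call, 16 lost one and 23 changed sign, and the cause was not tested except where named. The 7 calls of DEN model against normal control became 10 under library totals and under both FPKM fits. They became 4 with at least 10 counts in every rat, which removes the INK4 genes from the test, 3 at the study's thresholds and 5 to 7 when single rats were left out. The 3 calls of PZH administration against DEN model became 7 under library totals and under both FPKM fits, 1 at the study's thresholds, and 0 to 3 without single rats. The 0 was without M13, where 3 genes had an unadjusted p under 0.05 in edgeR's test. The single call of PZH administration against normal control became 2 under library totals, DESeq2 and the exact test, 0 with at least 10 counts in every rat, where Cdkn2c was not tested and 1 gene had an unadjusted p under 0.05 in edgeR's test, and stayed 1 to 1 without single rats.

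For the 61 further G1/S genes, the 35 calls with DEN became 44 under library totals and 43 in each FPKM fit. They became 10 at the study's thresholds and 27 to 35 without single rats. The 14 calls after PZH became 34 under library totals, 29 and 28 on log2(FPKM + 0.1) and log2(FPKM + 1), 0 at the study's thresholds, and 1 to 16 without single rats. The 3 calls against normal control became 6 under library totals, 9 with DESeq2, 6 with all 3 groups in 1 fit, 10 by the exact test, 1 at the study's thresholds, and 1 to 8 without single rats.

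Signs changed for log2 fold changes that were not called under the TMM scaling, of which Rb1 with DEN was called after its change of sign under library totals and in both FPKM fits. Under library totals, log2(FPKM + 0.1) and log2(FPKM + 1), in this order, they became 0.16, 0.15 and 0.14 for Ccnd3 (PZH administration against normal control), -0.66, -0.63 and -0.60 for Cdkn1b and -0.42, -0.42 and -0.37 for Rb1 (PZH administration against DEN model), and 0.78, 0.73 and 0.64 for Rb1 (DEN model against normal control). With at least 10 counts in every rat, Cdkn1b gave -0.0097 after PZH and Rb1 0.0035 with DEN. Without single rats, Ccnd3 ran from -0.19 to 0.11, Cdkn1b from -0.10 to 0.10, Cdkn2c (PZH administration against DEN model) from -0.13 to 0.21, and Rb1 from -0.20 to 0.024 with DEN and from -0.0079 to 0.35 in PZH administration against normal control. No paired analysis was possible because the groups share no rat numbers.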
